A study of Mus musculus with 12 samples.

Results

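TCRBJ02-07 is the ImmunoSEQ name of a joining (J) gene of the mouse T cell receptor beta (TCRβ) locus, and its rearrangements were followed across 3 subsets of splenic CD8 T cells and across CD8 T cells taken from tumors (tumor-infiltrating lymphocytes, TILs). All rows that name it as their J gene were taken, which gave 60834 of 288925 rearrangement rows in 12 libraries. Of these, 45311 were productive (in frame with no stop codon), 14980 were out of frame and 543 held a stop codon. TCRBJ02-07 was the most used of the 14 J genes, with 19.7% to 23.1% of unique productive rearrangements in every library. Its share of unique productive rearrangements differed little between the subsets at the depth sequenced. Drawn down to equal depth, that share in TILs differed from the splenic mean by -4.45 points, against -0.765 before the draw. Such a draw keeps rearrangements with more templates more often, so it cannot isolate the part of depth. The TCRBJ02-07 share of productive templates was lower in CX3CR1hi cells than in either CX3CR1lo subset. In those subsets, single TCRBJ02-07 rearrangements carried more templates than those of other J genes, productive or out of frame, for reasons not tested. In CX3CR1hi cells, TCRBJ02-07 made up 24.1% to 30.4% of rearrangements with at least 10 templates, beside 21.7% to 23.1% of unique productive ones.

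All libraries came from female C57BL/6 mice, 7 to 10 weeks old at the start, that carried subcutaneous MC38 tumors (a mouse colon adenocarcinoma cell line) and received anti-CTLA-4 Ab and anti-PD-L1 Ab, with cells harvested 2 weeks after treatment began. Each of 3 independent experiments (A, B and C) contributed 1 library of CD27lo CX3CR1lo, 1 of CD27hi CX3CR1lo and 1 of CX3CR1hi splenic CD8 T cells, which were flow-sorted, and 1 of CD8 TILs, which were purified by magnetic selection. CX3CR1 is a chemokine receptor that marks effector CD8 T cells, while CD27 is a costimulatory receptor kept on less differentiated cells, and the paper writes the same gates as CX3CR1 negative and positive. All groups were treated, so that no untreated background was measured, and each experiment used 10 mice whose cells the sources used here do not describe as kept apart. The DNA holds no marker genes, so that the labelled cell types could not be checked. Productive templates, an estimate of the cells carrying a rearrangement, ranged from 5893 to 113660 per library, and TILs were the shallowest group in every experiment.

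A TCRβ chain is made when a developing thymocyte joins a V, a D and a J gene, trimming the ends and adding non-templated nucleotides between them. The joint encodes CDR3, the loop that contacts the peptide, and the J gene supplies its last part. Out-of-frame joints encode no receptor, survive only on the second allele of a cell with a productive one, and are widely read as a record of recombination before selection on the receptor.

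In RefSeq's annotation of GRCm38.p6 (mm10), the gene is Trbj2-7, a J segment of 47 bp at chr6:41543810-41543856 and the last of the second J cluster before the constant gene Trbc2. The reads ended before the J gene did, and an untrimmed TCRBJ02-07 contributed 16 bases to them. They are shown here beside those of TCRBJ02-05, with the bases that both genes share at the end of the read in capitals, since these set when the genes can be told apart.
TCRBJ02-07: ctcctatgaaCAGTAC
TCRBJ02-05: aaccaagacaccCAGTAC
All 11672 untrimmed TCRBJ02-07 rows carried this sequence. The genes share 6 bases, and rows trimmed down to them were left unresolved in the files. There were 298 such rows, 211 of them productive, which amounted to 0.490% of the number of TCRBJ02-07 rows overall and to 2.63% at most in any library.

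Among unique productive rearrangements, where each counts once whatever its number of templates, the TCRBJ02-07 share in experiments A, B and C was 20.7%, 20.9% and 20.7% in CD27lo CX3CR1lo cells. It was 22.0%, 22.0% and 22.8% in CD27hi CX3CR1lo cells. CX3CR1hi cells gave 21.9%, 21.7% and 23.1%, and TILs gave 19.7%, 22.8% and 20.5%. The group means were 22.3% ± 0.444 (SD, n = 3) in CD27hi CX3CR1lo, 22.2% ± 0.753 in CX3CR1hi, 21.0% ± 1.58 in TILs and 20.8% ± 0.140 in CD27lo CX3CR1lo cells. Neighbours in this order overlapped between experiments, while every CD27lo CX3CR1lo library lay below every CD27hi CX3CR1lo and CX3CR1hi library. Wilson 95% confidence intervals for single libraries spanned from 22.4% to 23.2% for the library with the most rearrangements, CD27hi CX3CR1lo of experiment C, and from 17.7% to 21.9% for TILs of experiment A. Such intervals cover counting error only.

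**Figure D1:**
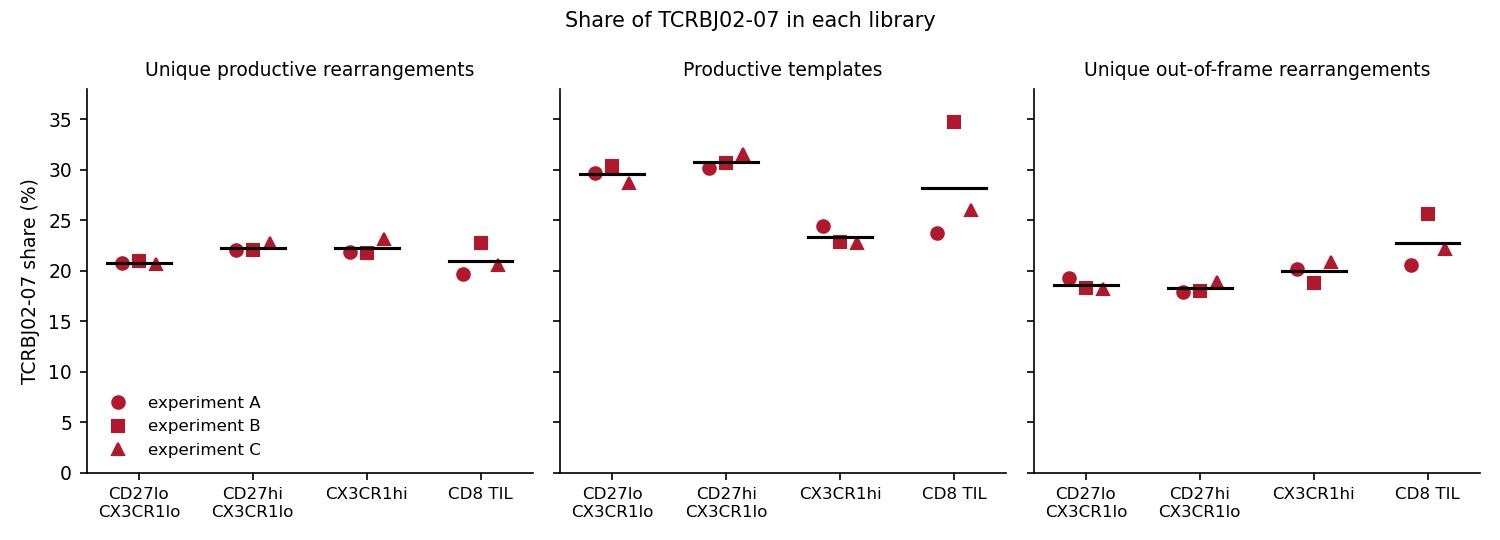
TCRBJ02-07 share (%) on the vertical axis in each library, for unique productive rearrangements, productive templates and unique out-of-frame rearrangements, by group on the horizontal axis. Symbols are experiments A, B and C and lines are group means. CX3CR1hi cells sit between 22.8% and 24.5% of templates, below all libraries of both CX3CR1lo subsets, and the TIL of experiment B is the highest at 34.8%.

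The clonal groups, CX3CR1hi cells and TILs, exceeded the CX3CR1lo subsets in this share by 0.0869 ± 0.681 percentage points (SD of the differences within experiments, n = 3; p = 0.935 in a two-sided exact permutation of groups inside each experiment). CX3CR1hi cells exceeded the mean of the CX3CR1lo subsets by 0.704 ± 0.587 points, higher in 3 of 3 experiments (exact permutation p = 0.370). TILs differed from the mean of the splenic subsets by -0.765 ± 1.70 points, with 1 of 3 experiments higher (exact permutation p = 0.344). None of the 3 differences passed the threshold of 0.05. Over all 14 J genes, 0 (0%) changed between the clonal groups and the CX3CR1lo subsets by the same exact permutation test at an adjusted p of 0.05, and 2 did at an unadjusted p of 0.05, TCRBJ02-01 and TCRBJ01-02. The J gene next in usage, TCRBJ02-01, had a mean of 13.1% and was higher in the clonal groups by 1.68 points (exact permutation, adjusted p = 0.130). Drawing all libraries down to the shallowest turned the difference of the clonal groups to -3.63 points (exact permutation p = 0.0185) and moved that of TILs to -4.45 points (exact permutation p = 0.0156).

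By templates, TCRBJ02-07 made up 29.7%, 30.4% and 28.7% of productive templates in CD27lo CX3CR1lo cells of experiments A, B and C. CD27hi CX3CR1lo cells gave 30.2%, 30.7% and 31.5%. CX3CR1hi cells gave 24.5%, 22.9% and 22.8%, with no overlap with either CX3CR1lo subset. TILs gave 23.7%, 34.8% and 26.0% and overlapped all other groups. CX3CR1hi cells fell below the mean of the CX3CR1lo subsets by 6.84 ± 1.16 points (SD, n = 3), lower in 3 of 3 experiments (exact permutation p = 0.037, the smallest that 27 arrangements allow). Without the most abundant productive rearrangement of each library, whatever its J gene, the difference was -4.44 points (exact permutation p = 0.037). For both clonal groups against the CX3CR1lo subsets the difference was -4.44 ± 2.36 points (exact permutation p = 0.0463; Benjamini-Hochberg adjusted over 14 J genes, p = 0.108). TILs differed from the splenic mean by 0.236 ± 5.84 points (exact permutation p = 0.938). Of the 14 J genes, 3 (21.4%) differed in template share between the clonal groups and the CX3CR1lo subsets at an adjusted p of 0.05, and TCRBJ02-07 was not among them. They were TCRBJ01-01, TCRBJ02-04 and TCRBJ01-02, named after their values were seen, with differences of -2.83, -1.91 and -1.89 points.

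The difference over both clonal groups rested partly on unresolved rows. In CX3CR1hi cells of experiment C, a TCRBV13-01 rearrangement that could not be assigned to TCRBJ02-05 or TCRBJ02-07 held 3439 templates, 3.03% of the library. In TILs of the same experiment, a pair of such TCRBV13-01 rearrangements held 871 and 639 templates, 4.16% and 3.05%. With all unresolved rows counted as TCRBJ02-07, its template share was 25.9% in that CX3CR1hi library and 33.3% in that TIL library. The difference of the clonal groups then stood at -2.76 points (exact permutation p = 0.241), while CX3CR1hi cells remained 5.79 points below the CX3CR1lo subsets (difference -5.79; exact permutation p = 0.037).

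In the CX3CR1lo subsets the template share exceeded the unique share, and single TCRBJ02-07 rearrangements carried more templates than those of other J genes. In CD27lo CX3CR1lo cells, 65.1%, 61.2% and 66.4% of unique productive TCRBJ02-07 rearrangements had exactly 2 templates, against 16.8%, 16.3% and 15.9% of those with other J genes. In CD27hi CX3CR1lo cells the share at 2 templates was 58.7%, 63.3% and 59.6%, against 11.1%, 12.5% and 13.4%. Pooled rearrangements of other J genes lay mostly at 1 template in these subsets, from 81.0% to 88.1% of them, while 20.5% to 35.8% of TCRBJ02-07 rearrangements did. The libraries of TCRBJ02-07 and of other J genes did not overlap in either measure.

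**Figure D2:**
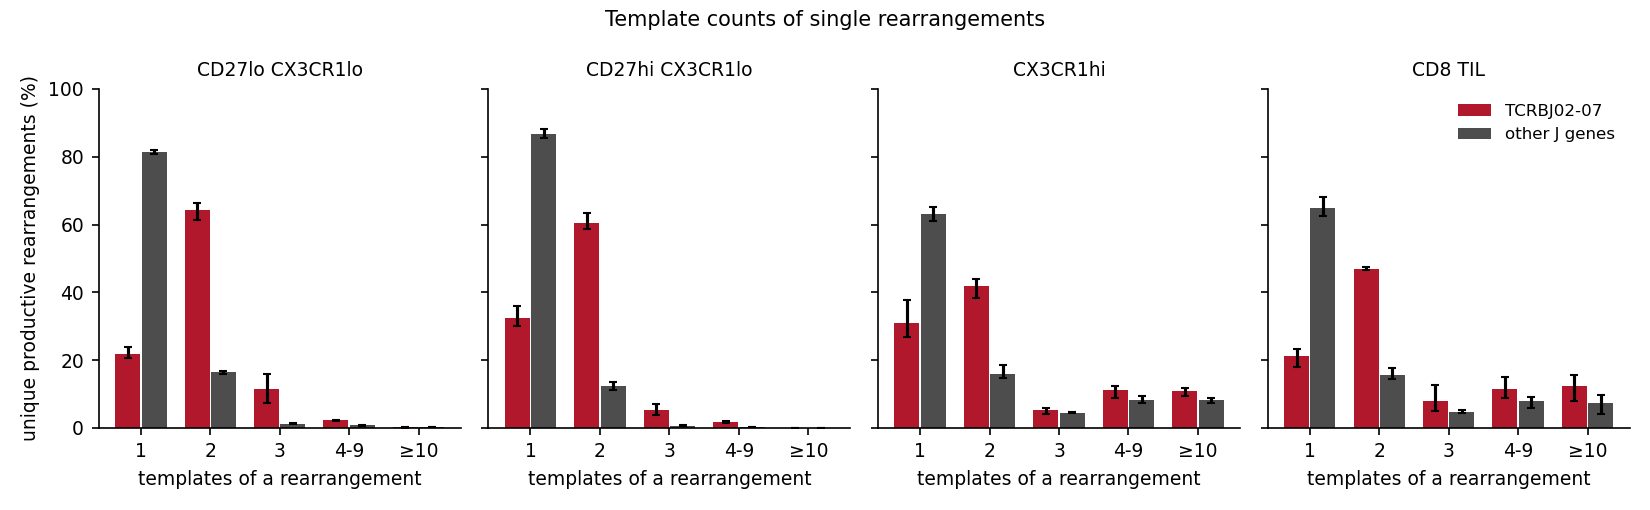
Percent of unique productive rearrangements (vertical axis) by their number of templates (horizontal axis) for TCRBJ02-07 and other J genes in the 4 groups. Bars are means of 3 experiments and error bars run from the lowest to the highest library. In the CX3CR1lo subsets TCRBJ02-07 peaks at 2 templates, with means of 64.3% and 60.5%, where other J genes, pooled, peak at 1.

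The pattern was also present in out-of-frame rearrangements and with each common V partner. Out-of-frame TCRBJ02-07 rearrangements of the CX3CR1lo subsets had 2 templates in 51.1% to 59.7% of cases per library, against 11.3% to 17.9% for other J genes. In CD27hi CX3CR1lo cells, the share at 2 templates ranged from 47.7% to 68.9% over 22 V partners with at least 100 productive rearrangements and from 53.1% to 62.4% over 9 lengths of J trimming. It was not particular to TCRBJ02-07. In CD27lo CX3CR1lo cells, TCRBJ01-03 and TCRBJ01-05 also peaked at 2 templates, with 54.5% and 50.6% there against 39.3% and 43.5% at 1. In CD27hi CX3CR1lo cells both had 1 template more often, with 35.8% and 36.5% at 2, whereas TCRBJ01-06 had 1.95% at 2 and TCRBJ02-05 had 3.47%. What set the count of 2 was not tested.

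As a result, TCRBJ02-07 had 2.00 ± 0.0556 templates per unique productive rearrangement in CD27lo CX3CR1lo cells (SD, n = 3) and 1.78 ± 0.0405 in CD27hi CX3CR1lo cells, where other J genes had 1.25 ± 0.00817 and 1.15 ± 0.0143. The log2 ratio of the means, TCRBJ02-07 over other J genes, was 0.66 ± 0.04 over the 6 CX3CR1lo libraries, positive in all of them (exact sign-flip permutation p = 0.0312, the smallest 6 libraries allow). In the 6 clonal libraries it was 0.32 ± 0.31, positive in 5 of them (exact sign-flip permutation p = 0.0625). CX3CR1hi cells gave 0.21, 0.09 and -0.03 and TILs gave 0.34, 0.85 and 0.45 in experiments A, B and C. The clonal groups were lower than the CX3CR1lo subsets on this scale (difference -0.34 ± 0.11, lower in 3 of 3 experiments; exact permutation p = 0.0463). Every template count was also divided by the mean count that its J gene had in CD27hi CX3CR1lo cells. The TCRBJ02-07 template share then differed by -4.97 points in CX3CR1hi cells (exact permutation p = 0.037). For the clonal groups together the difference was -3.28 points (exact permutation p = 0.0463). The scale came from a group in the comparison, which sets the template share there close to its unique share by construction. It was applied alike to rearrangements of every size, so that it is not an independent check.

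Out-of-frame rearrangements gave another order of the groups. TCRBJ02-07 made up 19.2%, 18.3% and 18.2% of unique out-of-frame rearrangements in CD27lo CX3CR1lo cells and 17.9%, 18.0% and 18.9% in CD27hi CX3CR1lo cells. CX3CR1hi cells gave 20.2%, 18.8% and 20.8%, and TILs gave 20.6%, 25.6% and 22.2%. TILs were highest in every experiment, although the lowest TIL library overlapped the highest CX3CR1hi library. The clonal groups exceeded the CX3CR1lo subsets by 2.94 ± 1.12 points (SD, n = 3; exact permutation p = 0.00926, the smallest this design allows), and TILs exceeded the splenic subsets by 3.85 ± 3.01 points (exact permutation p = 0.0156, the smallest 64 arrangements allow). Drawn down to equal depth, the difference of the clonal groups was 0.229 points (exact permutation p = 0.824). The draw again keeps rearrangements with more templates more often, so the part of depth in the 2.94 points was not isolated.

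The productive share was higher than the out-of-frame share in 9 of 9 splenic libraries and lower in 3 of 3 TIL libraries. The productive minus out-of-frame difference was 2.20 ± 0.616 points in CD27lo CX3CR1lo, 4.01 ± 0.0707 in CD27hi CX3CR1lo and 2.28 ± 0.630 in CX3CR1hi cells (SD, n = 3 each), and it was -0.854, -2.85 and -1.65 points in TILs of experiments A, B and C. Over all 12 libraries its mean was 1.67 ± 2.29 points (exact sign-flip permutation p = 0.0312; adjusted over 14 J genes, p = 0.0486). Leaving out experiment A, B or C gave 1.71, 1.68 and 1.63 points, no longer past the threshold (exact sign-flip permutation p = 0.102, 0.0703 and 0.0938). By that adjusted p, 9 of the 14 J genes (64.3%) differed between productive and out-of-frame rearrangements, 3 of them higher and 6 lower when productive, and the other 2 that were higher were TCRBJ02-01 and TCRBJ01-01. TILs lay below the splenic subsets in this difference (difference -4.61 ± 1.38 points, lower in 3 of 3 experiments; exact permutation p = 0.0156, the smallest 64 arrangements allow). Adjusted over the 14 J genes, this exact permutation p was 0.0547, and 0 J genes (0%) were called, with 5 at an unadjusted p of 0.05. In each single TIL library the Wilson 95% intervals of the productive and the out-of-frame share overlapped, and TILs had 129 to 230 unique out-of-frame TCRBJ02-07 rearrangements.

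CDR3s made with TCRBJ02-07 were shorter than those made with other J genes, pooled, in every library. Their mean length over unique productive rearrangements was 39.7 ± 0.261 nucleotides (SD over 12 libraries), against 42.4 ± 0.0762 for other J genes. The difference was -2.66 ± 0.323 nucleotides, close to the length of 1 codon, with TCRBJ02-07 shorter in 12 of 12 libraries (exact sign-flip permutation p = 0.000488, the smallest 12 libraries allow). By single J genes, the mean length was 39.8 nucleotides with TCRBJ01-01, close to that of TCRBJ02-07. The rare TCRBJ01-07 was shorter at 37.5, and the remaining J genes ran from 40.2 (TCRBJ02-06) to 44.2 (TCRBJ02-02). In splenic libraries, 18.7% to 21.1% of TCRBJ02-07 CDR3s were 36 nucleotides long, against 7.94% to 8.80% with other J genes. At 45 nucleotides the order turned, with 12.3% to 14.6% for TCRBJ02-07 and 24.6% to 25.2% for other J genes. Between the clonal groups and the CX3CR1lo subsets the mean TCRBJ02-07 length differed by 0.132 ± 0.131 nucleotides (SD, n = 3; exact permutation p = 0.472).

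**Figure D3:**
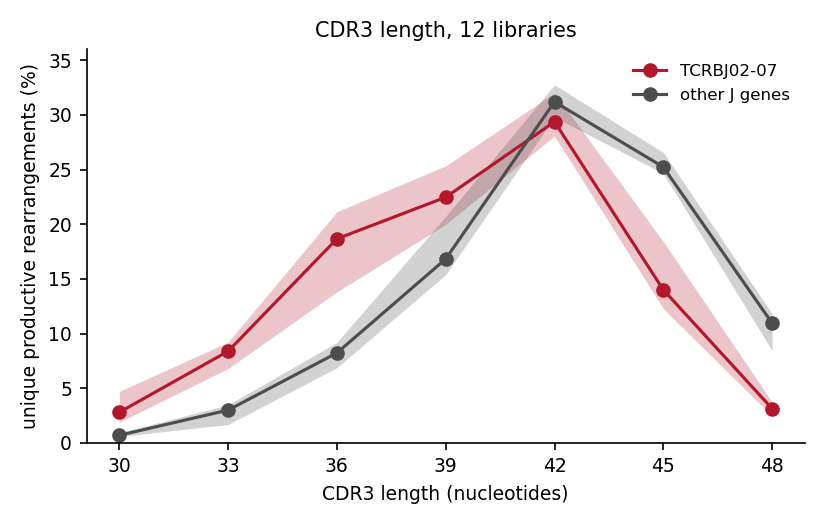
Percent of unique productive rearrangements (vertical axis) at each CDR3 length in nucleotides (horizontal axis), for TCRBJ02-07 and other J genes, pooled. Lines are means and bands the range over 12 libraries, and both peak at 42 nucleotides, while TCRBJ02-07 has the higher mean at 30, 33, 36 and 39 nucleotides.

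The number of inserted nucleotides differed far less, and J trimming was not compared with other J genes. Inserted nucleotides averaged 3.51 ± 0.0536 with TCRBJ02-07 and 3.46 ± 0.0432 with other J genes, higher by 0.0468 ± 0.0408 in 12 of 12 libraries (exact sign-flip permutation p = 0.000488). The clonal groups and the CX3CR1lo subsets differed in TCRBJ02-07 insertions by 0.0310 ± 0.0797 nucleotides (exact permutation p = 0.333). TCRBJ02-07 had lost 3.72 ± 0.0805 nucleotides from its end in productive and 3.68 ± 0.161 in out-of-frame rearrangements (difference 0.0376 ± 0.157, higher in 8 of 12 libraries; exact sign-flip permutation p = 0.432). Losses of 4 and of 0 nucleotides were the most frequent in productive rearrangements, at 22.6% ± 0.958 and 18.1% ± 1.02.

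TCRBJ02-07 was joined to 27 V genes, of which the 5 most frequent made up 37.7% of its unique productive rearrangements on average. They were TCRBV13-02 at 9.77% ± 1.83 (SD over 12 libraries), TCRBV12-01 at 7.87% ± 0.723, TCRBV16-01 at 7.13% ± 0.605, TCRBV13-01 at 6.50% ± 1.20 and TCRBV03-01 at 6.45% ± 0.690. Between the clonal groups and the CX3CR1lo subsets, 0 of 27 V partners (0%) differed at an adjusted p of 0.05 by the exact permutation test, the lowest adjusted p being 0.167, and 3 did at an unadjusted p of 0.05. These were TCRBV02-01, higher by 0.942 points, TCRBV12-01 (difference -0.890) and TCRBV31-01, higher by 0.592 points, of which the first and last were named after their values were seen. The largest of the 5 shifts was that of TCRBV13-02, higher by 1.23 ± 1.55 points in 2 of 3 experiments (exact permutation, adjusted p = 0.625).

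Productive and out-of-frame TCRBJ02-07 rearrangements used V genes differently, as 15 of 27 V partners (55.6%) passed an adjusted p of 0.05 in the exact sign-flip permutation test over 12 libraries, 7 of them higher when productive and 8 lower. TCRBV24-01 fell from 5.14% of out-of-frame to 0.827% of productive rearrangements, lower in 12 of 12 libraries (exact permutation, adjusted p = 0.0022). TCRBV04-01 fell from 8.38% to 5.17% and TCRBV20-01 from 4.32% to 2.14%, both in 12 of 12 libraries. TCRBV15-01 was lower by a mean of 1.39 points (difference -1.39). In the other direction, TCRBV12-02 rose from 3.6% to 6.15%, higher in 11 of 12 libraries, and TCRBV29-01 from 2.76% to 4.86% in 12 of 12. TCRBV12-01, TCRBV13-01, TCRBV13-03, TCRBV14-01 and TCRBV16-01 rose by 2.03, 1.85, 1.74, 1.44 and 1.32 points. TCRBV13-02, at 9.37% out of frame, and TCRBV03-01, at 5.83%, did not pass (adjusted p = 0.524 and 0.0717 in the exact sign-flip permutation test).

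**Figure D4:**
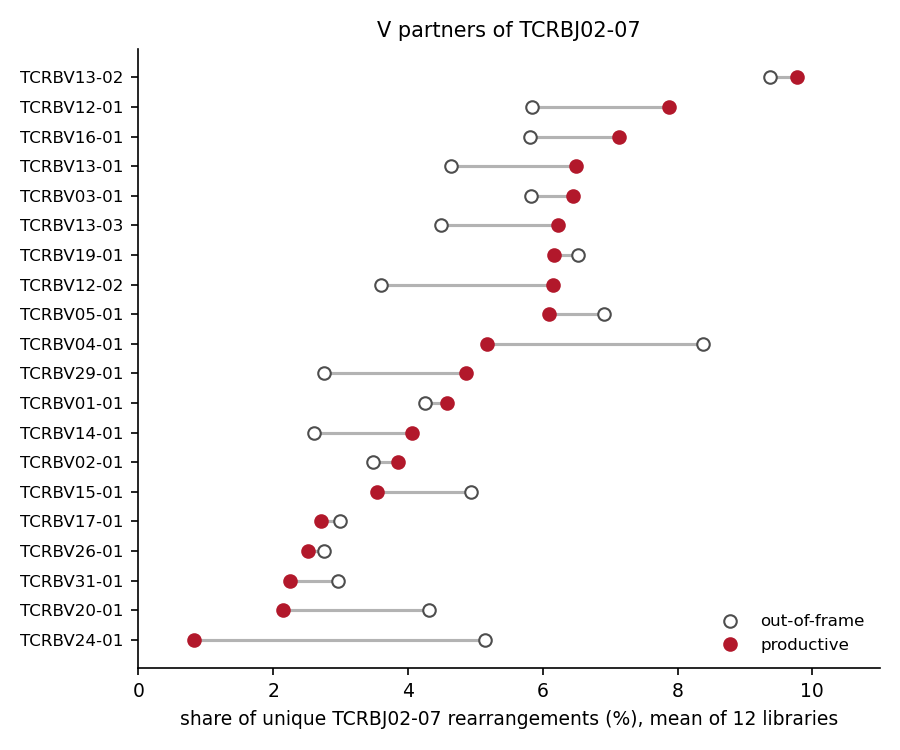
Mean share over 12 libraries (horizontal axis, %) of each of the 20 most frequent V partners among unique TCRBJ02-07 rearrangements, with filled points for productive and open points for out-of-frame rearrangements. TCRBV24-01 shows the widest gap, from 5.14% out of frame to 0.827% productive.

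Templates of TCRBJ02-07, like those of other J genes, were concentrated in few rearrangements in the clonal groups. Its 10 largest rearrangements held 2.87%, 2.08% and 2.24% of its productive templates in CD27lo CX3CR1lo cells and 0.963%, 0.696% and 0.474% in CD27hi CX3CR1lo cells. In CX3CR1hi cells they held 31.7%, 35.3% and 35.0%, and in TILs 43.7%, 54.8% and 62.4%. The clonal groups exceeded the CX3CR1lo subsets by 42.2 ± 5.89 points (SD, n = 3; exact permutation p = 0.00926, the smallest this design allows). They were higher in 3 of 3 experiments with no overlap of libraries. The paper had already reported higher clonality in these groups, so that the test was not independent of how they were chosen. The 10 were taken from 268 to 446 unique productive TCRBJ02-07 rearrangements in TILs but from 8376 to 12457 in CD27hi CX3CR1lo cells. The 10 largest rearrangements of other J genes held 26.0%, 38.9% and 24.0% of their templates in CX3CR1hi cells and 49.1%, 41.5% and 30.5% in TILs. These lay above the TCRBJ02-07 values in CX3CR1hi cells of experiment B and TILs of experiment A and below them in the other 4 clonal libraries. TCRBJ02-07 rearrangements with at least 10 templates numbered 179, 144 and 248 in CX3CR1hi cells, 30.4%, 28.1% and 24.1% of all rearrangements of that size. In TILs they numbered 21, 55 and 62, or 31.8%, 37.2% and 27.1%. Among the 100 largest rearrangements of a library, TCRBJ02-07 held 40 to 42 in CD27lo CX3CR1lo and 65 to 76 in CD27hi CX3CR1lo cells. Its shares of all unique productive rearrangements there were 20.7% to 20.9% and 22.0% to 22.8%. Only 16 to 26 and 11 to 15 rearrangements of any J gene had at least 10 templates in those libraries. Most of the 100 were thus small, where TCRBJ02-07 mostly had 2 templates and other J genes, pooled, mostly 1. TCRBJ02-07 held 22 to 27 of the 100 largest in CX3CR1hi cells and 24 to 39 in TILs, beside 21.7% to 23.1% and 19.7% to 22.8% of all unique productive rearrangements.

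The CDR3 nucleotides of the leading TCRBJ02-07 rearrangements are shown because these rearrangements led the expanded templates, 5′ to 3′ from the first CDR3 base to the end of the read, a codon before the CDR3 ends. Capitals mark the bases assigned to the J gene. The second rearrangement of TILs in experiment B is added for comparison.
CX3CR1hi A clone 1: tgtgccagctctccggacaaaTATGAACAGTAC
CX3CR1hi B clone 1: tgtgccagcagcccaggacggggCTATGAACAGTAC
CX3CR1hi C clone 1: tgtgccagcagcaacagggtTGAACAGTAC
CD8 TIL A clone 1: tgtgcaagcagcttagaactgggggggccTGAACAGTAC
CD8 TIL B clone 1: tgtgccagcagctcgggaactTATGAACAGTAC
CD8 TIL B clone 2: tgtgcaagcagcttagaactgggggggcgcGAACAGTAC
CD8 TIL C clone 1: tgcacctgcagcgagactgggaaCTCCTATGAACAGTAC
The 2 largest of each of the 6 clonal libraries were 12 distinct rearrangements with 8 different V genes and CDR3s of 33 to 45 nucleotides.

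In CX3CR1hi cells, clone 1 of experiment A (TCRBV12-02) held 1019 templates, 1.83% of the library (Wilson 95% interval 1.72% to 1.94%). It had 0 of 5893 templates in TILs of that experiment, which allows a share of up to 0.0509% (3 templates). Clone 1 of experiment B (TCRBV05-01) held 1487 templates, 2.92% of CX3CR1hi cells, and 0 templates in TILs, which allows up to 0.0242%. Clone 1 of experiment C (TCRBV19-01) held 2121 templates, 1.87%, and 1 template in TILs. Of the 6 leading CX3CR1hi rearrangements, 3 were found in TILs of the same experiment, and clone 2 of experiment B (TCRBV13-03) was the most abundant there, with 212 templates or 1.71%.

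In TILs, clone 1 of experiment C (TCRBV01-01) was the largest of all rearrangements in its library. It held 2091 templates, 9.98% of TILs (Wilson 95% interval 9.58% to 10.4%) and 38.4% of TCRBJ02-07 templates there. The same rearrangement held 848 templates, 0.746%, in CX3CR1hi cells and 2 and 3 templates in the CX3CR1lo subsets. Clone 1 of experiment A (TCRBV16-01) held 225 templates, 3.82% of TILs and 0.131% of CX3CR1hi cells, and clone 1 of experiment B (TCRBV04-01) held 441 templates, 3.56% of TILs and 0.514% of CX3CR1hi cells. All 6 leading TIL rearrangements were found in CX3CR1hi cells of the same experiment, from 4 to 848 templates.

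**Figure D5:**
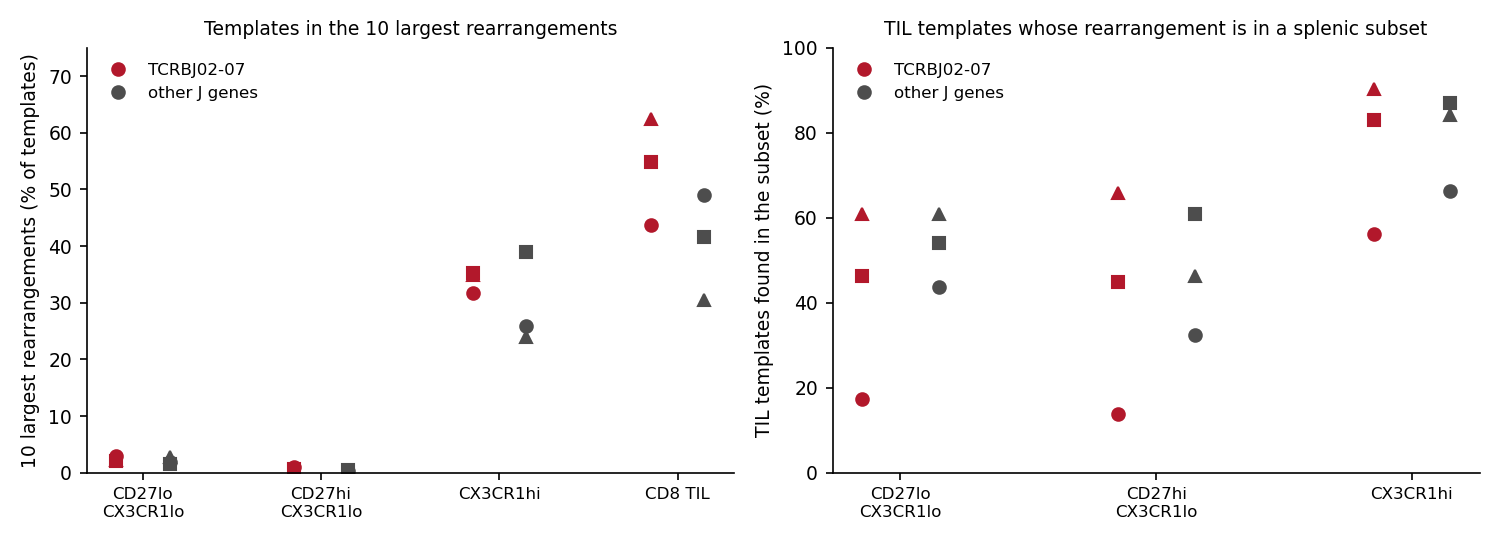
Left, percent of TCRBJ02-07 templates and of other J gene templates in their 10 largest rearrangements (vertical axis) by group. Right, percent of TIL templates whose rearrangement was found in each splenic subset of the same experiment. Circles, squares and triangles are experiments A, B and C, and CX3CR1hi cells hold 56.2% to 90.2% of TIL TCRBJ02-07 templates.

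TIL rearrangements were then looked up in each splenic subset of the same experiment. CX3CR1hi cells held the rearrangements of 56.2%, 83.0% and 90.2% of TIL TCRBJ02-07 templates in experiments A, B and C. CD27lo CX3CR1lo cells held those of 17.5%, 46.4% and 60.9%, and CD27hi CX3CR1lo cells those of 13.9%, 44.8% and 65.7%. CX3CR1hi cells were highest in every experiment, and the other subsets had no fixed order. They exceeded the mean of the CX3CR1lo subsets by 35.0 ± 7.12 points (SD, n = 3; exact permutation p = 0.037, the smallest 27 arrangements allow). Without pairing by experiment the exact permutation p was 0.0714. The paper had already reported high TCR overlap between TILs and CX3CR1 positive splenic cells in these experiments, so that the test was not independent of that result. A single template was enough for a match. In experiment C, TIL clone 1, with 38.4% of TIL TCRBJ02-07 templates, was matched in the CX3CR1lo subsets by 2 and 3 templates. Productive templates per library were 18180 to 21622 in CD27lo CX3CR1lo, 49116 to 71574 in CD27hi CX3CR1lo and 50994 to 113660 in CX3CR1hi cells. The part of depth was not tested. For other J genes the means were 79.2% ± 11.2 in CX3CR1hi, 53.0% ± 8.63 in CD27lo CX3CR1lo and 46.5% ± 14.2 in CD27hi CX3CR1lo cells, against 76.5% ± 17.9, 41.6% ± 22.1 and 41.5% ± 26.1 for TCRBJ02-07. Counted once each, 22.0%, 33.4% and 43.3% of unique TIL TCRBJ02-07 rearrangements were found in CX3CR1hi cells.

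Nearly all TCRBJ02-07 nucleotide rearrangements, like those of other J genes, were seen in a single experiment. Of 1058 in TILs, 7 (0.662%) were in more than 1 experiment, against 32 of 3981 (0.804%) for other J genes. Of 5372 in CX3CR1hi cells, 48 (0.894%) were, against 151 of 18612 (0.811%). The CX3CR1lo subsets lay further apart, with 2.94% against 1.75% in CD27hi CX3CR1lo and 1.24% against 0.663% in CD27lo CX3CR1lo cells. By V gene and CDR3 amino acids, 5 of 975 TCRBJ02-07 CDR3s (0.513%) were present in TILs of all 3 experiments. For other J genes 17 of 3734 (0.455%) were, a close share. The leading nucleotide form of the most abundant pair of them is printed because each was reached by many different rearrangements.
shared CDR3 1: tgtgccagcggtgggTATGAACAGTAC
shared CDR3 2: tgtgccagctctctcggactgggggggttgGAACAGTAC
The first (TCRBV13-02, 30 nucleotides) had 15 nucleotide forms, its leading form held 0 inserted nucleotides, and it was present in all 12 libraries. It held 16, 125 and 353 templates in TILs and 121, 267 and 177 in CX3CR1hi cells of experiments A, B and C, against 5 to 26 in each CX3CR1lo library. The second (TCRBV12-01, 42 nucleotides) had 12 forms, with 49, 195 and 82 templates in TILs, 35, 337 and 71 in CX3CR1hi cells and 0 to 5 in the CX3CR1lo libraries. The remaining CDR3s used TCRBV17-01, TCRBV02-01 and TCRBV16-01, with 159, 79 and 9 templates over the TIL libraries. All 5 were chosen by their presence in TILs and the printed pair by TIL templates, so high TIL counts follow from the choice. The counts are not scaled to library depth, and no difference between groups was tested for them.

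The leading TCRBV16-01 rearrangements of TILs in experiments A and B, shown among the clones above, came from different experiments and differed at 2 of 87 bases and 1 amino acid. Productive TCRBV16-01 and TCRBJ02-07 CDR3s within 1 amino acid of either comprised 14 CDR3s from 37 nucleotide rearrangements and were present in all 12 libraries. They held 237, 343 and 31 templates in TILs and 250, 327 and 15 in CX3CR1hi cells of experiments A, B and C, against 5 to 15 in each CX3CR1lo library. This set was chosen after its values were seen and was not tested.

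Over the 12 libraries, the J or V genes whose share of unique productive rearrangements was most like that of TCRBJ02-07 were TCRBJ01-03 (Pearson r = 0.762), TCRBV16-01 (r = 0.626) and TCRBV12-01 (r = 0.529). The libraries share experiments and differ in depth, shares of J genes sum to a fixed total, and V genes share rearrangements with TCRBJ02-07, so that these values are descriptions only.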

How the data were processed

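Rearranged TCRβ genes were amplified by the authors from extracted DNA in the ImmunoSEQ assay, sequenced on an Illumina NextSeq system and annotated on the ImmunoSEQ platform. The deposited tables give for each rearrangement a template count (a whole number, not normalised), its fraction of all templates (not used here), reads of 87 bases, V, D and J genes, CDR3 length, insertions, J deletion and frame. Build mm10 is named in the submitters' processing notes, and the files hold no coordinates. The primers' efficiency for each J gene bears on template counts and was not measured.

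Rows were grouped by the labels' cell type and experiment code, and replicates are experiments (n = 3), which may share handling within an experiment. Shares were taken over productive or out-of-frame rows, with unresolved J genes kept in the denominator. Two-sided exact permutation tests exchanged groups within experiments (27 arrangements for CX3CR1hi cells and 64 for TILs), because the paper treated experiments as repeated measures. Deviations from group means over 12 J genes correlated at a mean of 0.0187 within experiments. Exact sign flips served differences within a library, which treats libraries of an experiment as independent. The threshold was 0.05, with Benjamini-Hochberg adjustment over 14 J genes or 27 V partners. Named were TCRBJ02-07 and the J genes next to it in usage, the 5 most used V partners with up to 10 that passed a test (by size), the 2 largest rearrangements of each clonal library and the 3 genes most like it. Genes under 0.5% were left out of the last. The member gene and these lists were chosen with earlier results of these data known. Alternatives were the replicate block, leaving out an experiment, a minimum of 2 templates, CDR3 amino acid clonotypes, equal depth, the leading rearrangement, unresolved rows and stop-codon rows; rescaled counts, unresolved rows counted as TCRBJ02-07 and removal of near copies (1 substitution from a rearrangement 20 times larger) were chosen after seeing the data. Python 3.11.15, numpy 2.4.6, pandas 2.3.3, scipy 1.17.1 and matplotlib 3.10.9 were used, and the tests were checked on simulated data.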

Additional observations from a re-analysis of the deposited data

Results flagged for a closer look

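The productive minus out-of-frame share of TCRBJ02-07 moved in opposite directions in spleen and tumor. It was above 0 in 9 of 9 splenic libraries and below 0 in 3 of 3 TIL libraries, and TILs differed from the splenic mean by -4.61 points (exact permutation p = 0.0156; 0.0547 adjusted over 14 J genes). TIL libraries held 627 to 1037 unique out-of-frame rearrangements of all J genes, and splenic libraries 2283 to 21134, so that depth moved with this result. Drawn to equal depth, the difference was -4.83 points (exact permutation p = 0.0156). The productive share of TILs then differed from the splenic mean by -4.45 points, against -0.765 before the draw. Such a draw keeps rearrangements with more templates more often, so it cannot isolate the part of depth, which was not tested further.

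The excess of templates per TCRBJ02-07 rearrangement over other J genes was smaller in the clonal groups than in the CX3CR1lo subsets, by a difference of -0.34 on the log2 scale (exact permutation p = 0.0463). CX3CR1hi cells gave -0.03 to 0.21, and the CX3CR1lo libraries 0.62 to 0.72.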

How the results depend on the processing

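Of the alternative values, 98 kept their direction and side of the threshold, 35 kept their direction but lost the threshold, 14 reversed, 2 newly passed and 3 counts moved. With a minimum of 2 templates, which removes most rearrangements of other J genes, the unique share moved to -20.0 points for the clonal groups and -21.3 for CX3CR1hi cells, the template share to -28.8 and -31.8 for the same groups and -15.3 for TILs, productive minus out-of-frame to 6.05, the out-of-frame share to -16.4, insertions to 0.0861 against other J genes and -0.0101 for the clonal groups, J deletion to 0.137 and the log2 templates ratio to -0.61, and 10 J genes were called. Equal depth gave -3.63, -2.10 and -4.45 points for the unique share of the clonal groups, CX3CR1hi cells and TILs, and 0.229 for the out-of-frame share. The clonal groups' template share difference was -3.57 without each library's leading rearrangement, -4.00 over resolved J genes and -2.76 with unresolved rearrangements as TCRBJ02-07, none past the threshold, and the TIL difference was -1.22 without the leading rearrangement. The productive minus out-of-frame share lost its call over amino acid clonotypes (1.26; exact permutation p = 0.0674), against stop-codon rearrangements (3.26; exact permutation p = 0.131) and without any of the experiments, and clonal insertions were -0.00240 over clonotypes. Sign flips of 3 experiment means cannot pass the threshold (smallest exact permutation p = 0.25). There the differences stood at 1.67 points, -2.66 and 0.0468 nucleotides, with 0 V partners called in place of 15. Apart from construction, causes were not tested.

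Leaving out an experiment, after which exact tests between groups cannot pass, gave -0.256 to 0.425 points for the clonal groups' unique share (reversed without experiment B), -5.80 to -3.72 for their template share, -7.50 to -6.42 for CX3CR1hi cells and -3.04 to 2.56 for TILs (reversed without B). The out-of-frame difference ranged from 2.39 to 3.52, productive minus out-of-frame from 1.63 to 1.71, its TIL difference from -5.29 to -3.91, clonal insertions from -0.00277 to 0.0749, J deletion from -0.000839 to 0.0678 (reversed without C), the 10 largest rearrangements from 39.7 to 45.5, TIL templates found from 32.2 to 38.97 and the log2 ratio's difference from -0.40 to -0.30. Without the experiment as a replicate block, TIL templates found kept 35.0 points (exact permutation p = 0.0714), 1 J gene was called for unique share, and the clonal groups' difference in productive minus out-of-frame (-2.86 points) passed (exact permutation p = 0.0260, 0.0556 with the block). No other call changed.

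TIL depth limits single shares: 3 templates were 0.0509% of the shallowest library.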

Other observations

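Within TCRBJ02-07, TIL libraries stood apart from splenic ones in the share of a single CDR3 length and in D gene use, values that were looked at after the comparisons above and were not tested. CDR3s of 36 nucleotides made up 13.8%, 14.2% and 16.4% of unique productive TCRBJ02-07 rearrangements in TILs of experiments A, B and C, and 18.7% to 21.1% in the 9 splenic libraries. Mean CDR3 lengths showed no common direction, at 40.2, 40.3 and 39.5 nucleotides in TILs and 39.5 to 39.9 in spleen. The second D gene was assigned in 54.1%, 57.8% and 50.7% in TILs and in 47.95% to 49.96% in spleen, again with no overlap. TIL libraries held 268 to 446 such rearrangements, the fewest of all groups.

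CDR3s made with TCRBJ02-07 recurred between experiments. In CD27hi CX3CR1lo cells, 398 TCRBJ02-07 CDR3s, by V gene and amino acids, were present in all 3 experiments, 1.58% of them, against 700 or 0.735% for other J genes. In CD27lo CX3CR1lo cells the shares were 0.471% and 0.215%, in CX3CR1hi cells 0.441% and 0.345%, and in TILs 0.513% and 0.455%. TCRBJ02-07 rearrangements carried more templates in the CX3CR1lo subsets, and the part of this in being found again was not tested.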
